A study of Mus musculus with 8 samples.

Results

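The MYC network is a set of basic helix-loop-helix zipper transcription factors, and 8 of its genes were followed across 2 stages of mouse preimplantation development. The genes were Myc, Mycn, Max, Mxd1, Mxd3, Mxd4, Mnt and Mlx, taken by name, and every probe set that the array annotation gives to one of them alone was used, 19 of the 34945 probe sets with a single gene symbol (8 of 18193 genes). The samples were 4 arrays of 8-cell embryos (E2.5, 66 h after human chorionic gonadotropin) and 4 of blastocysts (E4.5, 120 h). All embryos were wild type, from B6D2F1 females mated with B6D2F1 males, and had been cultured in KSOM from the 1-cell stage, so the stages share strain, genotype and culture. Whole embryos were read, so fewer cells of one type and less RNA per cell cannot be told apart. Nothing in the labels ties the arrays of a stage to different embryo pools, and the p-values then cover only the spread among these samples, possibly a technical one.

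MYC and MYCN activate transcription as dimers with MAX, which binds the hexamer CACGTG, the E-box. The MXD proteins and MNT compete for the same partner and recruit the SIN3 and histone deacetylase corepressors, and MLX is the partner of the glucose-responsive factors MLXIP (MondoA) and MLXIPL (ChREBP), and also of MNT, MXD1 and MXD4. MYC proteins are known for driving ribosome production, nucleotide synthesis and growth, and in the early embryo for sustaining the pluripotent cells and their competition with one another.

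Because these proteins all read the E-box, the RefSeq promoter windows of the genes themselves (build GRCm38.p6, 250 bases before the transcription start to 50 after it) were searched for CACGTG, whose reverse complement is itself. A window was found for 7 of the 8 genes (all but Myc), and 4 of these 7 hold the E-box, against 7.15% of 32851 windows of all genes. The E-box begins 219 bases before the start in Mxd4, 123 in Mnt and 40 in Mlx, and in Max it begins 3 bases before the start and spans it. The windows of Mycn, Mxd1 and Mxd3 hold none. Mycn is shown beside them because it had the largest change: its window holds 3 matches to the E2F-type motif TTTGGCGC or TTTCGCGC (either strand), beginning 183, 179 and 168 bases before the start. The first and second of these overlap, and 0.813% of all windows hold this motif. A match is a description of the letters and no evidence of binding. The 250 bases before each start are printed 5′ to 3′ on the gene's strand, with 10 further bases for Max so that its E-box is whole, and capitals mark the E-box or, in Mycn, the E2F-type matches. They lie at chr5:34187711-34187960, minus strand (Mxd4), chr11:74830674-74830923, plus strand (Mnt), chr11:101087040-101087289, plus strand (Mlx), chr12:76962239-76962498, minus strand (Max) and chr12:12941837-12942086, minus strand (Mycn).
Max: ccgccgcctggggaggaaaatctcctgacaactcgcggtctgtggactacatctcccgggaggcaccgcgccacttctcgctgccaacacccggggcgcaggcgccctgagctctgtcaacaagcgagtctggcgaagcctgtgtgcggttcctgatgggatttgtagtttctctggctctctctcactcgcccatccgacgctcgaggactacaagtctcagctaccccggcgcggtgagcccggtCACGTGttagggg
Mlx: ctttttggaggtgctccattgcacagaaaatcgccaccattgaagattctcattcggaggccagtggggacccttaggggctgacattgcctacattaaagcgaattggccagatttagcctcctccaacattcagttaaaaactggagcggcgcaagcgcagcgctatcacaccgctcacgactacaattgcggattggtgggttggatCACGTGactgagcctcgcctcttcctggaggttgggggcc
Mnt: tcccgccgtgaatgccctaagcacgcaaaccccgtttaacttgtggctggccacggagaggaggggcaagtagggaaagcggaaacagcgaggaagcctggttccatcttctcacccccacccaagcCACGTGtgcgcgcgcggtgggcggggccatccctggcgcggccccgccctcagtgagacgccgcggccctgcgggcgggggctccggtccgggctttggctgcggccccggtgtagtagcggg
Mxd4: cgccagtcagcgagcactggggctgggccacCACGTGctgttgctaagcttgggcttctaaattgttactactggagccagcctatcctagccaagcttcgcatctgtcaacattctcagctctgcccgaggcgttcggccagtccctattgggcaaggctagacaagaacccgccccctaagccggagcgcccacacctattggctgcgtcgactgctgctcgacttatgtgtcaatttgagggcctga
Mycn: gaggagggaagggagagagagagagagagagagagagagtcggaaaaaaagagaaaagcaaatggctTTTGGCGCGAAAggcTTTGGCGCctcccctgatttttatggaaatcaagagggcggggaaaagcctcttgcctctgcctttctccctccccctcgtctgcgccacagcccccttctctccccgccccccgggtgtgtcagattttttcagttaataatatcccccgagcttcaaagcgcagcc
Of the 4 genes with an E-box, Max and Mlx were higher in blastocysts and Mnt and Mxd4 were lower, as given below, so the motif did not go with one direction.

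**Figure D1:**
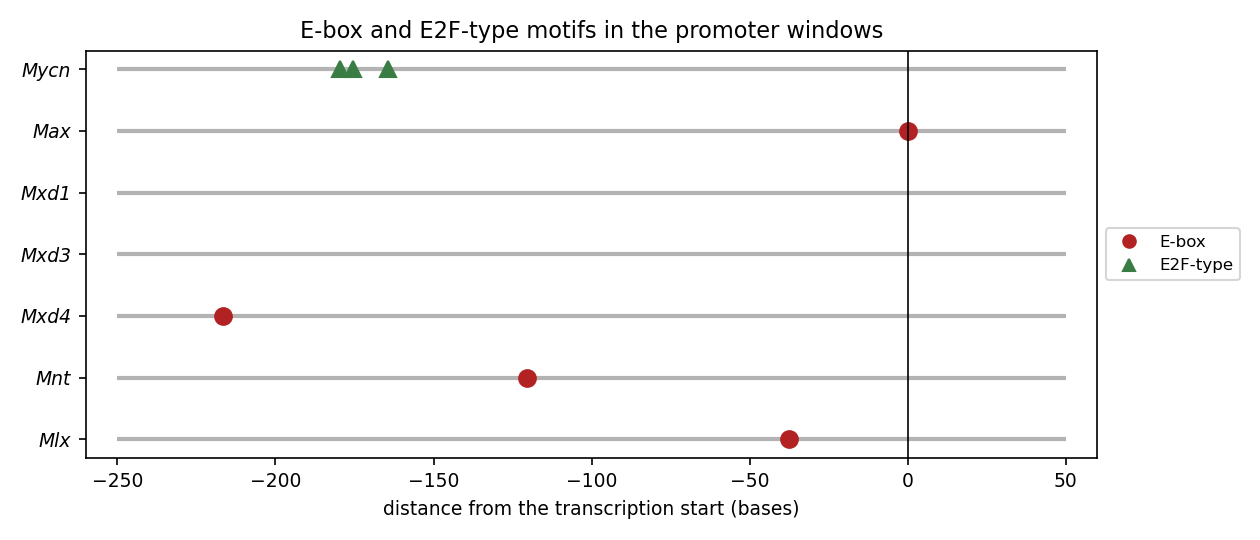
Position of the E-box (circles) and of the E2F-type motif (triangles) in the promoter windows of the 7 genes that have one; the x axis is the distance in bases from the transcription start, at 0. The E-box is in Max, Mxd4, Mnt and Mlx, and the 3 E2F-type matches are in Mycn, between 183 and 161 bases before the start.

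Between the 8-cell embryo and the blastocyst Mycn rose 11.6-fold while Myc fell 1.75-fold, the shared partner Max rose 1.93-fold, the repressor genes Mxd1, Mxd3, Mxd4 and Mnt each fell 1.42-fold to 2.33-fold, and Mlx rose 1.48-fold. Differences are given as the blastocyst mean less the 8-cell mean of log2(signal + 16), with their standard error (SE); folds are taken from them and understate the change of dim genes. Each gene was read by its brightest probe set, and limma's p-values were adjusted by Benjamini-Hochberg over 13274 tested genes. At an adjusted p under 0.05, 3 of the 8 genes were higher (background 37.5% of all tested genes) and 5 lower (background 34.2%). With 71.7% of all genes called in one direction or the other, that all 8 were called is not a result about the network as such. At least a 2-fold change was called in 3 of the 8 (45.8% of all tested genes). In 7 of the 8 genes the 4 values of one stage lay wholly above those of the other, against 66.8% of all tested genes. The filter on low values asked for signals over the array's 40th percentile on at least 4 arrays; all 8 genes met it on 8, so none passed the filter through one stage alone. The deposited signals have the same trimmed mean on each array, so a rise or a fall is relative to the other signals.

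**Figure D2:**
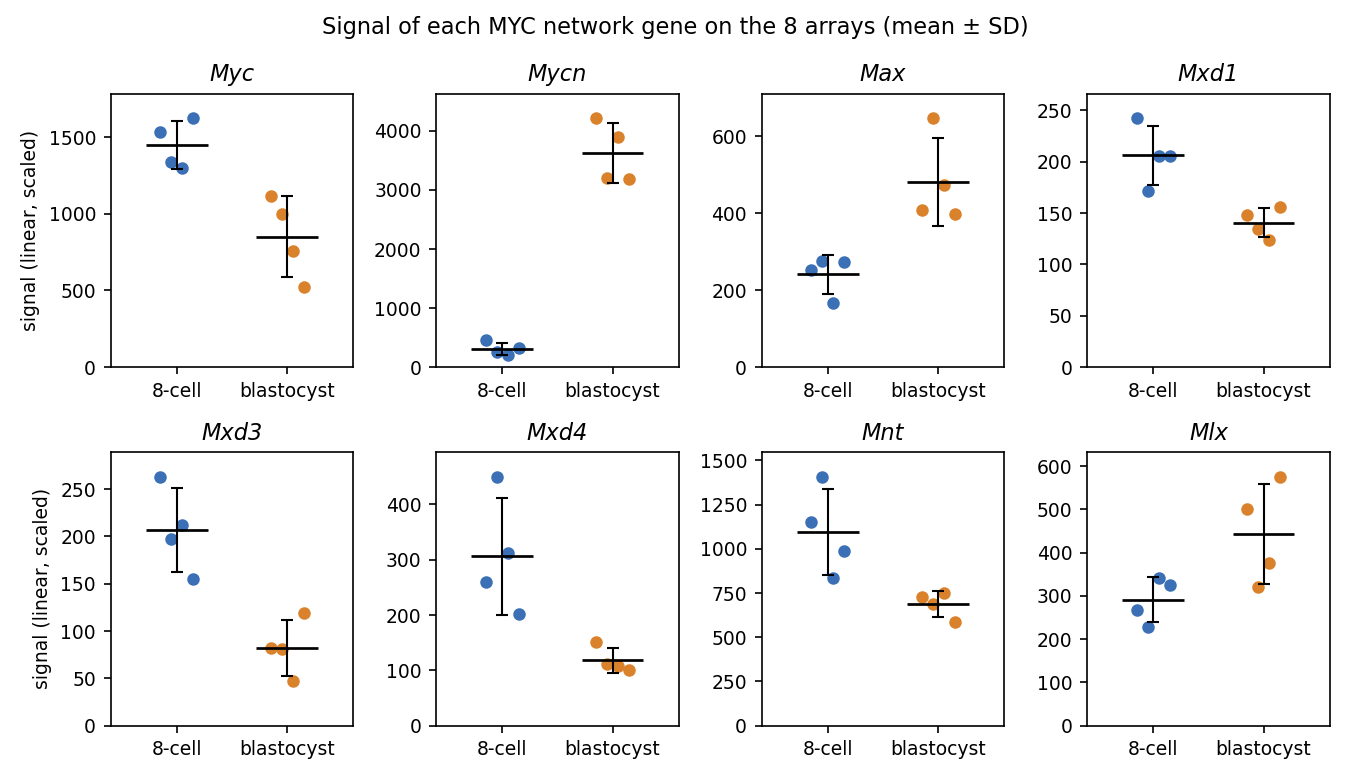
Signal (linear, as deposited) of the brightest probe set of each gene on the 4 8-cell (blue) and 4 blastocyst (orange) arrays, with the mean (line) and SD (bar); each panel has its own axis from 0. The stages are separate in every panel but that of Mlx, where the lowest blastocyst array (322) lies under the highest 8-cell array (342).

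The activators moved in opposite directions. Mycn, the MYC gene of embryonic and neural progenitors, gave signals of 456, 249, 214 and 317 on the 8-cell arrays and 4212, 3204, 3900 and 3185 on the blastocyst arrays. Every blastocyst array was far above every 8-cell array, with means of 309 ± 107 and 3625 ± 513 (SD, n = 4 each). The difference was 3.53 (SE 0.22, adjusted p = 5.64e-07), which is the 363rd highest of the 13274 tested genes. Myc, the proto-oncogene that gives the family its name, gave 1533, 1338, 1299 and 1622 in 8-cell embryos and 1115, 1001, 760 and 521 in blastocysts. Its stages did not overlap either, but the blastocyst arrays were spread over a wider range, with a log2 SD of 0.48 against 0.15 in 8-cell embryos. The means were 1448 ± 154 and 849 ± 264, a difference of -0.81 (SE 0.22, adjusted p = 0.00886).

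Mycn has other, dimmer probe sets, and they did not all repeat the rise. Probe set 1425922_a_at was at 13.6, 47.7, 4.20 and 23.0 in 8-cell embryos and at 103, 102, 103 and 69.0 in blastocysts, a difference of 1.64 (SE 0.31, adjusted p = 0.00105 over 28227 tested probe sets). It was above the 40th percentile on 1 of 4 8-cell arrays and so entered the test only through blastocysts, where it was higher, which fixes the direction of its call. Probe set 1425923_at was at 89.2, 86.2, 61.9 and 53.4 and then at 14.0, 11.3, 74.9 and 84.2. Here 2 blastocyst arrays were below all 8-cell arrays and the other two were among them, and the difference of -0.74 (SE 0.43, adjusted p = 0.155) did not pass. With the mean of the 3 probe sets Mycn gave 1.48 (adjusted p = 8.12e-05), a smaller rise than on the brightest one alone. The reason for the disagreement was not tested. Myc and Max are read by 1 probe set each, so no such comparison can be made for them.

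Max, the partner that MYC, MXD and MNT proteins share, gave 252, 275, 168 and 274 in 8-cell embryos and 409, 646, 473 and 398 in blastocysts. All blastocyst arrays were above all 8-cell arrays, with means of 242 ± 50.6 and 482 ± 115. The difference was 0.95 (SE 0.20, adjusted p = 0.00205).

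The repressor genes were lower in blastocysts. Mnt, encoding the most widely expressed of the MAX-bound repressors, gave 1149, 1407, 837 and 986 and then 729, 687, 752 and 589, with no overlap between the stages (-0.64, SE 0.17, adjusted p = 0.00752). Mxd4 gave 260, 450, 312 and 202 in 8-cell embryos and 151, 112, 108 and 101 in blastocysts (-1.22, SE 0.23, adjusted p = 0.000879). Its 8-cell arrays varied by more than a factor of 2 among themselves, and the lowest of them was still above the highest blastocyst array. Mxd3, the MXD gene known for expression in dividing cells, gave 263, 197, 212 and 154 and then 81.8, 80.8, 46.7 and 119 (-1.21, SE 0.24, adjusted p = 0.00122). Mxd1, the founding MXD gene and one associated with cells leaving the cycle, gave 242, 172, 206 and 206 and then 148, 135, 124 and 156. This was the smallest fall of the 4 (-0.50, SE 0.13, adjusted p = 0.00723), and the stages were still separate.

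The other tested probe sets of the repressor genes gave smaller differences. For Mxd3, 1422970_at gave -0.57 (SE 0.17, adjusted p = 0.0122) and 1438847_at -0.32 (SE 0.14, adjusted p = 0.0651). For Mxd4, 1422574_at gave -0.72 (SE 0.21, adjusted p = 0.0129) and 1422575_at -0.21 (SE 0.15, adjusted p = 0.248). These all pointed down, and 1 further probe set of Mxd4, 1 of Mnt and 2 of Mxd1 were under the filter and were not tested, with means no higher than 35.3 at either stage. The dim Mxd1 probe set 1455104_at pointed up, from 17.6 ± 12.5 to 30.9 ± 9.61, a difference of 0.53 against -0.50 on the brightest one. With the mean of its probe sets Mxd1 gave -0.08 (adjusted p = 0.619), so its call rests on the brightest one. With that mean Mxd3 gave -0.70 and Mxd4 -0.76, and Mxd4 gave -0.72 without probe sets that end in _x_at, _s_at or _a_at. Of all 19 probe sets of the network 15 passed the filter, of which 5 were higher (background 33.6%; Mycn 1425922_a_at, tested only through blastocysts, is one of them), 7 lower (32.8%) and 3 not past the threshold, against 66.4% of all tested probe sets called. In 11 of the 15 the stages did not overlap (background 61.2%).

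**Figure D3:**
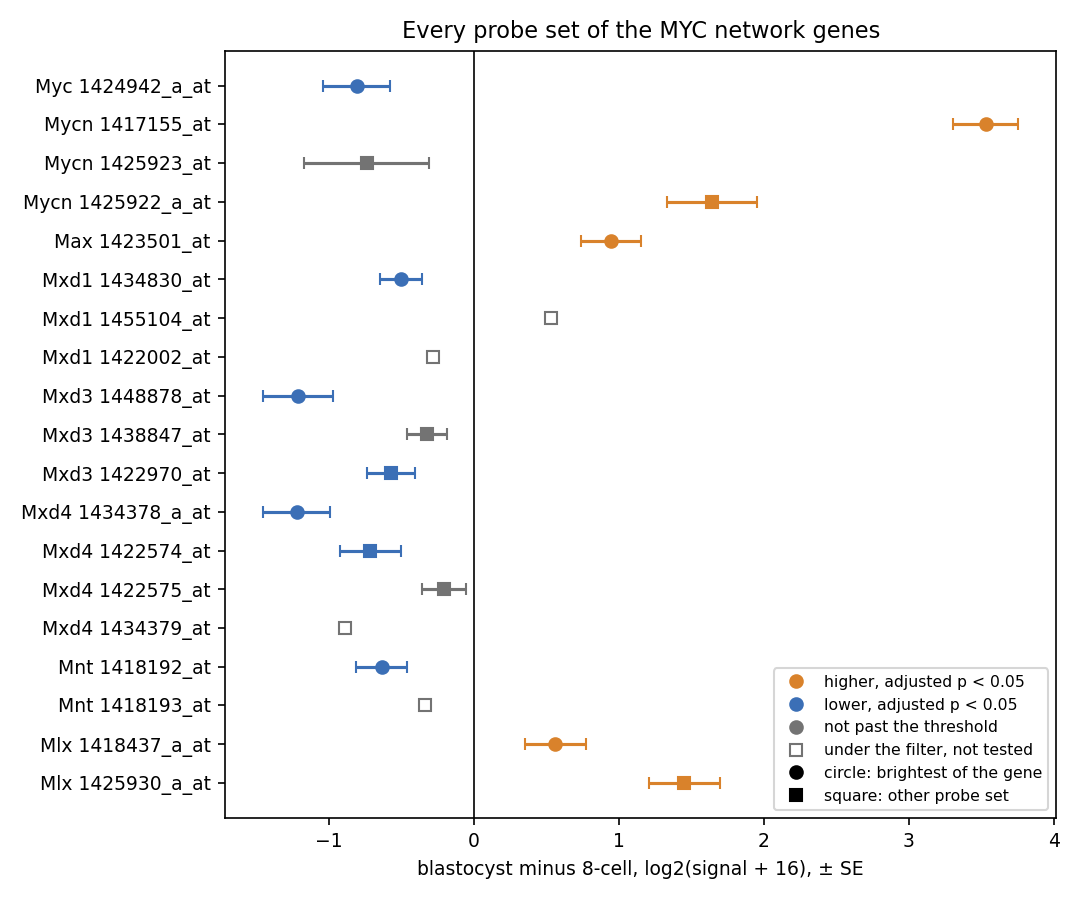
Blastocyst minus 8-cell difference (log2(signal + 16), ± SE) of each of the 19 probe sets; circles are the brightest probe set of a gene, squares the others, and open squares were under the filter and not tested. Colours give the call at an adjusted p under 0.05 over all probe sets; Mycn 1417155_at stands at 3.53, and the other probe sets lie between -1.22 and 1.64.

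Mlx, the partner of the Mondo factors, gave 268, 229, 342 and 325 in 8-cell embryos and 501, 322, 377 and 575 in blastocysts. The stages overlapped, and the difference of 0.56 (SE 0.20, adjusted p = 0.0312) was the least secure of the 8. It did not pass without 8-cell array 1 (0.53, adjusted p = 0.0685), without 8-cell array 2 (0.46, 0.0823), without blastocyst array 1 (0.49, 0.0799), without blastocyst array 4 (0.43, 0.0821) or with quantile normalization (0.30, 0.222). Its dimmer probe set 1425930_a_at gave 81.4, 33.7, 62.8 and 99.4 and then 241, 173, 210 and 209. On that probe set the stages were wholly separate, and the rise was larger (1.45, SE 0.25, adjusted p = 0.000507). With the mean of both probe sets Mlx gave 1.01.

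The scale of the arrays bears on the small falls. When the arrays were scaled to 9 of their bacterial hybridisation spike-in probe sets in place of the deposited scale, the median difference of all tested genes moved from 0.02 to 0.26, and 62.5% of the calls were higher against 52.3%. The genes kept their directions, but Myc (-0.54, adjusted p = 0.0707), Mnt (-0.37, 0.212) and Mxd1 (-0.25, 0.299) no longer passed, which left Mxd3 (-0.98) and Mxd4 (-0.98) as the lower genes. Mycn (3.79), Max (1.20) and Mlx (0.82) stayed higher. Among all 13274 tested genes 5403 were then higher and 3244 lower, beside 3 and 2 of the 8 here.

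**Figure D4:**
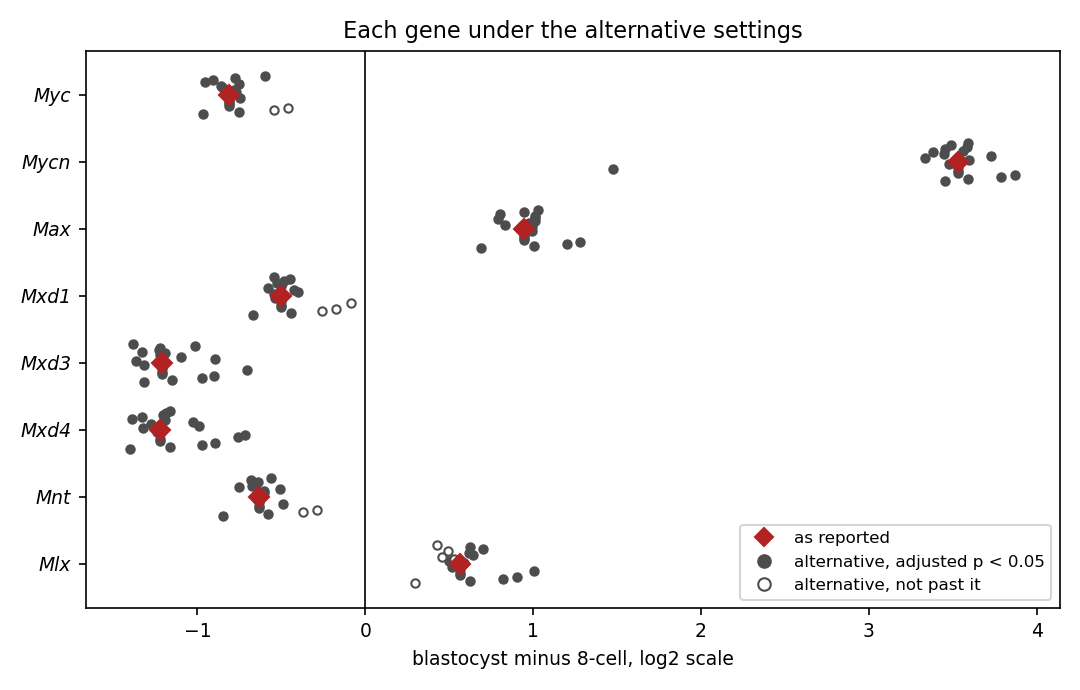
Blastocyst minus 8-cell difference of each gene as reported (red diamond) and under the alternative settings (filled where the adjusted p is under 0.05, open where it is not). No gene changed sign; the point of Mycn at 1.48 is the mean of its probe sets, and the open points of Myc and Mnt are the spike-in scalings.

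Array quality moved with the stage. The 3′ minus 5′ difference of the Actb control probe sets was 2.42 ± 0.19 log2 units on the 8-cell arrays and 0.82 ± 0.11 on the blastocyst arrays, and that of Gapdh 2.32 ± 0.26 and 1.36 ± 0.11 (SD, n = 4 each). Its part in the results was not tested. The markers of the stages followed the labels, with 9 of 11 trophectoderm and inner cell genes higher in blastocysts and 2 lower, and with Elf5 (8.37) and Sox17 under the 40th percentile on all 8-cell arrays, ahead of Gata3 (5.30) and Eomes (5.17). Elf5 and Sox17 thus entered the test only through blastocysts. Among 14 markers of cumulus and other cells on the array, 7 were tested. Of these 3 were higher (background 37.5%), Thy1 (2.21) and Pdgfrb (1.20) among them, and 2 lower (34.2%), Amhr2 (-4.76) and Pecam1 (-1.71). The 3 higher ones were above the 40th percentile on no more than 1 of 4 8-cell arrays. They thus entered the test only through blastocysts and could only be called higher. With 64 in place of 16 added to the signals, Thy1 gave 1.20, Pdgfrb 0.55 and Pecam1 -1.01, and Pdgfrb gave 2.00 with 1 added and 0.71 with its probe sets averaged. Of the 14 markers 6 were under the 40th percentile on all 8-cell arrays, 3 on all blastocyst arrays. Their summed signal was 6759 to 10308 in 8-cell embryos and 758 to 1041 in blastocysts, and Amhr2 alone gave 8118 and 282 on average. Without Amhr2 it was 389 to 548 and 494 to 713. The other cumulus markers, named after their values were seen, were Fshr, Inhba, Has2 and Ptx3. They averaged 30.35, 23.15, 8.975 and 20.8 in 8-cell embryos, where the 40th percentile averaged 33.75. In blastocysts they averaged 38.6, 13.6, 23.4 and 12.6, where it averaged 30.6. The part of such cells in the results was not tested.

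The rest of the network was lower or not past the threshold. Mlxipl, encoding the carbohydrate-response factor ChREBP that works with MLX, fell from 691 ± 126 to 68.6 ± 15.3 (-3.06, SE 0.18, adjusted p = 4.26e-07), against the rise of its partner Mlx. Its 8-cell arrays gave 705, 520, 823 and 716 and the blastocyst arrays 72.7, 67.9, 48.5 and 85.4. Mlxip, encoding MondoA, differed by -0.36 (SE 0.13, adjusted p = 0.0354), a call lost in 9 of 21 alternatives. Mga, encoding a MAX partner of a Polycomb complex, gave -0.45 (SE 0.20, adjusted p = 0.0731), and 2 of its other probe sets were called lower. Mxi1, another gene of the MXD family, gave -0.06 (SE 0.15, adjusted p = 0.737). Mycl, the remaining MYC gene, was not tested: its brightest probe set was at 27.7 ± 6.92 and 14.7 ± 7.39, above the 40th percentile on 1 of 8 arrays.

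Other helix-loop-helix factors that read the same E-box rose or did not pass. Of 8 tested, 5 were higher (background 37.5%) and none lower (34.2%). The median was 0.94 against 0.02 over all tested genes. Mitf, a factor of pigment cells and lysosome genes, rose by 3.79 (SE 0.27), Srebf2, which drives cholesterol synthesis, by 2.07 (SE 0.11), Usf2 by 1.86 (SE 0.17) and Tcfl5 by 0.96 (SE 0.14), all with adjusted p of 0.000161 or less. Mitf was above the 40th percentile on 2 of 4 8-cell arrays. With probe sets averaged per gene Mitf gave 1.90 and Usf2 1.14.

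Cofactors of the network were lower in part, by a count that depends on the scale. Of 17 tested genes listed as coactivators of MYC 11 were lower (background 34.2%) and 1 was higher (37.5%), with a median of -0.51. The 11 include Zbtb17 (-0.93, named after its value was seen), which is not a coactivator. With spike-in scaling 7 of the 17 were lower and 1 higher, with a median of -0.25. Of all 13274 tested genes 3244 were then lower and 5403 higher, with a median of 0.26. The histone acetyltransferase genes Ep300 (-2.06, SE 0.11) and Crebbp (-1.41, SE 0.14) fell, as did Ccnt1, a cyclin of the elongation kinase (-1.79, SE 0.14), and Bptf, of a chromatin remodeller (-1.02, SE 0.11). Crebbp gave -0.83 with its probe sets averaged, and Bptf -0.66 with both sets of spike-ins and -1.87 without probe sets that end in _x_at, _s_at or _a_at. Of 12 tested corepressor genes of the MXD and MNT proteins 8 were lower (background 34.2%) and 1 was higher (37.5%), with a median of -0.77. With spike-in scaling 6 were lower and 2 higher, with both sets of spike-ins 6 and 3, and with quantile or median scaling 8 and 2. With both sets of spike-ins 2972 of all tested genes were lower and 5614 higher. The SIN3 complex genes Ing1 (-2.31, SE 0.14), Suds3 (-2.12, SE 0.12) and Arid4a (-1.82, SE 0.16) fell, with -1.41 for Ing1 and -1.15 for Arid4a by the mean of probe sets. Sin3b, which encodes the scaffold that MXD proteins bind, rose from 3629 to 14103 on average (1.94, SE 0.14), but it gave 1.12 with its probe sets averaged and 0.37 (adjusted p = 0.0881) without probe sets that end in _x_at, _s_at or _a_at. Its paralogue Sin3a, named after its value was seen, gave -0.57 (SE 0.12, adjusted p = 0.00215).

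Of 10 tested partners of MGA and MAX in the Polycomb complex PRC1.6, 5 were lower (background 34.2%) and 3 higher (37.5%), with a median of -0.33. Quantile normalization gave 4 lower and 1 higher, and spike-in scaling 4 and 3 with a median of -0.09. Over all 13274 tested genes spike-in scaling gave 3244 lower and 5403 higher, with a median of 0.26. With both sets of spike-ins the median of the partners was -0.007, against 0.34 over all tested genes. L3mbtl2 (-1.08, SE 0.16), Yaf2 (-1.06, SE 0.19), Pcgf6 (-0.98, SE 0.11) and Rnf2, the ubiquitin ligase of the complex (-0.89, SE 0.11), fell, and Yaf2 gave -0.12 (adjusted p = 0.591) with the mean of its probe sets. With both sets of spike-ins Pcgf6 gave -0.62 and Rnf2 -0.54. Of 15 tested genes that set the stability of MYC protein 6 were higher (background 37.5%) and 8 lower (34.2%), with a median of -0.58. With spike-in scaling 6 were higher and 4 lower, with a median of -0.31 against 0.26 over all tested genes. Fbxw7, the ubiquitin ligase subunit that marks MYC for breakdown, rose from 62.0 to 628 on average (3.06, SE 0.20, adjusted p = 6.34e-07) and Ppp2r5a, a phosphatase subunit, rose 2.83-fold from 386 to 1117. Skp2, another ligase subunit, fell (-2.18, SE 0.14). Cip2a, an inhibitor of that phosphatase, gave -1.92 (SE 0.16), but 1.23 (adjusted p = 0.0252) on its probe set without the suffixes _x_at, _s_at and _a_at and -0.35 (adjusted p = 0.155) with the mean of its probe sets.

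Genes known as targets that MYC activates moved in both directions. Of 38 tested 11 were higher (background 37.5%) and 24 lower (34.2%), with a median of -0.65 against 0.02 over all tested genes. With spike-in scaling 11 were higher and 18 lower, with a median of -0.38 against 0.26. Both sets of spike-ins gave 11 and 16, with a median of -0.29 against 0.34. The lower genes included Ddx21, a nucleolar helicase (-2.85, SE 0.12, from 10423 to 1444 on average), and Cad, which starts pyrimidine synthesis (-2.50, SE 0.12), though Ddx21 gave -1.56 with its probe sets averaged and -0.27 (adjusted p = 0.0828) without probe sets that end in _x_at, _s_at or _a_at. The higher genes included the glucose transporter gene Slc2a1 (3.03, SE 0.16) and the hexokinase gene Hk2 (2.53, SE 0.21). Named after their values were seen, Odc1 of polyamine synthesis (-0.55, SE 0.13), Ncl, encoding nucleolin (-0.42, SE 0.12), and Bop1, a ribosome assembly factor (-2.49, SE 0.15), were also lower, and Ldha of lactate production (1.86, SE 0.29) and Cdk4 of the cell cycle (1.25, SE 0.14) higher. Of the 33 targets with a promoter window 8 hold the E-box, against 7.15% of all windows. A target was counted if any of its windows held it, while the 7.15% is a share of single windows.

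Genes known to be repressed by MYC showed no common direction. Of 7 tested 2 were higher (background 37.5%) and 3 lower (34.2%), with a median of -0.36. Ndrg1 rose from 382 to 12610 on average (4.99, SE 0.14), the cell cycle inhibitor gene Cdkn1b rose by 1.99 (SE 0.25), and Cdkn1a, another such inhibitor (-1.23, SE 0.18), and Clu (-0.98, SE 0.28) fell. Cdkn1b was above the 40th percentile on 1 of 4 8-cell arrays and entered the test only through blastocysts; it gave 1.16 with its probe sets averaged and 1.29 with 64 added. The stages overlapped for Clu, which gave -0.65 with both sets of spike-ins. Of 7 tested targets of MLX with MondoA or ChREBP, 3 were higher (background 37.5%) and 1 lower (34.2%), with a median of 0.17. Arrdc4 and Txnip, the arrestin genes that MondoA switches on, rose by 2.17 (SE 0.28) and 1.78 (SE 0.36), Elovl6 of fatty acid elongation by 0.75 (SE 0.10), and the fatty acid synthase gene Fasn fell (-1.59, SE 0.14). With the mean of their probe sets Elovl6 gave 0.32 and Txnip 1.16.

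**Figure D5:**
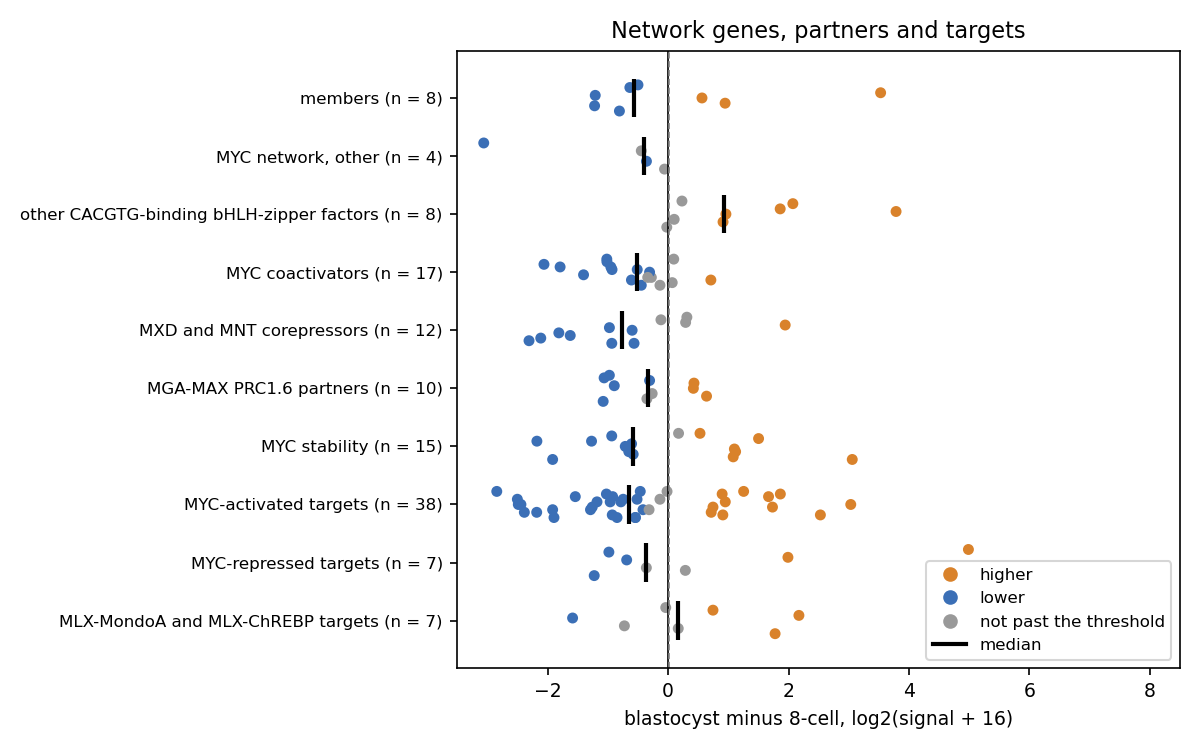
Blastocyst minus 8-cell difference (log2(signal + 16)) of every tested gene of the network, its cofactors and its known targets, one point a gene, coloured by call, with the median of each list as a black bar; the dashed line is the median of all tested genes. The other E-box factors have the highest median (0.94) and the corepressors the lowest (-0.77).

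Genes with a pattern like that of Myc or Mycn were taken as the 3 with the smallest Euclidean distance over the 8 arrays, after each gene was centred on its mean. The pattern of Mycn is mainly the difference of the stages, so for it the distance mostly finds genes with a step of the same size. Myc also varied among the blastocyst arrays (log2 SD 0.48), so for it the distance weighs that spread as well. Its 3 nearest genes ranged in blastocysts from 413 to 1002 (Sfrp1), 2459 to 4357 (Utp20) and 115 to 351 (Sorl1). The source of this shared spread was not tested. Nearest to Mycn were Fbxw17 (distance 0.32), Capns1 (0.44) and Leprot (0.45). Fbxw17 rose by 3.41 (SE 0.22), Capns1, the small calpain subunit, by 3.39 (SE 0.18) and Leprot by 3.44 (SE 0.19). Fbxw17 was above the 40th percentile on 1 of 4 8-cell arrays, so it was tested only through blastocysts, and its difference ran from 2.36 to 4.17 over the alternatives. Nearest to Myc were Sfrp1, a secreted WNT inhibitor (distance 0.38), Utp20, a ribosome assembly factor (0.40), and Sorl1, a sorting receptor (0.47). The differences were -0.82 for Sfrp1 (SE 0.26), -0.69 for Utp20 (SE 0.18) and -0.81 for Sorl1 (SE 0.30). With spike-in scaling none of them passed (adjusted p = 0.0998, 0.0948 and 0.0951), and Sorl1, whose stages overlapped, lost its call in 9 alternatives. With the mean of their probe sets Sfrp1 gave -1.55 and Sorl1 -0.06 (adjusted p = 0.807).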

How the data were processed

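Values were the signal intensity of each probe set on a linear scale, as deposited; the processing software was not given in the sources used here. Per the labels' protocols, RNA was isolated with a PicoPure kit, amplified by a small-sample method and labelled with biotin. The deposited values had an equal mean on each array once 2% of values at each end were removed. Stages came from the sample titles. Values became log2(signal + 16) without further scaling. Control probe sets were left out. Each gene took its brightest probe set, and genes above the 40th percentile on at least 4 of 8 arrays were tested with limma 3.58.1 (lmFit, eBayes) in R 4.3.3, with Benjamini-Hochberg adjustment; a second fit took all 28227 probe sets past the filter. The number of arrays limits the precision. The procedure was tested on simulated data, in 10 runs with 200 changed genes each. It recovered 12.2% of changes of 0.5 log2 units, 60.3% of 1 and 91.5% of 2, and 4.72% of its calls were false. Far more genes were called in the data, so these shares need not hold there.

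The genes and the lists (network, other E-box factors, coactivators, corepressors, PRC1.6, stability, activated and repressed targets, MLX targets, embryo markers, other cells) were chosen with earlier results of these data known. Named are the 8 genes with their probe sets, the rest of the network, in each list the 4 called genes that differed most, and the 3 nearest genes to Myc and Mycn; others are said to be named after their values were seen. Plots used Python 3.11.15 and matplotlib 3.10.9.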

Additional observations from a re-analysis of the deposited data

Results flagged for a closer look

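Of 38 sets of 4 values (19 probe sets, 2 stages) 2 had 1 array whose gap to the nearest other, as a share of the range, was above Dixon's 95% critical value for 4 samples; chance gives about 1 in 20. For Mycn probe set 1425922_a_at in blastocysts the share was 0.965: blastocyst array 4 was at 69.0 and the next at 102. For Mxd4 probe set 1434379_at in 8-cell embryos it was 0.926: array 2 was at 5.10 and the next at 43.9. Neither is the brightest probe set of its gene.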

How the results depend on the processing

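Of the 166 values of the 8 genes under 21 alternatives, none changed sign, 154 kept their call and 12 lost it. The alternative with both sets of spike-in probes was chosen after seeing the data. Lower genes of the network numbered 5 as reported and 2 with either spike-in scaling, and lower genes in all were 2972 with both sets of spike-ins against 4539. Leaving out each array gave 2 to 3 higher and 5 lower network genes. Cip2a was 1.23 without _x_at, _s_at and _a_at probe sets; without those, Myc and Mlx had no value. In the labels the same-numbered arrays of the stages shared only a number. The correlations of their deviations were between -0.04 and -0.02. Differently numbered arrays were not compared, so these values cannot decide whether the arrays were paired. A replicate block gave 4862 higher and 4412 lower genes and, in the network, 3 and 5. It lost the call of Mlxip (adjusted p = 0.054). Signals near the 40th percentile, 28.3 to 35.7, limit what the dim probe sets can show.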
